A study of Homo sapiens with 6 samples.

Results

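The integrins, the laminins and 10 further matrix glycoproteins form the adhesion machinery between a cell and the matrix around it. They were taken here as 48 genes, namely 18 integrin alpha subunits, 8 integrin beta subunits, 12 laminin chains, and FN1, VTN, NID1, NID2, TNC, THBS1, THBS2, SPP1, HSPG2 and AGRN. The members were found through the RefSeq accession of each probe, without use of any signal, and had 66 probes among the 50599 gene probes of the array, of which 28174 could be named as 20503 genes. At least 1 probe of 41 members passed the filter on dim probes, which asked that a probe be well above background on 3 of the 6 arrays, and 54 member probes were tested. Of the 66 member probes 42 were above background on all 6 arrays and 9 on none.

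RNA of A673 cells, an Ewing sarcoma cell line driven by the fusion protein EWS/FLI1, was hybridised to 6 Agilent arrays in 1 colour (Cy3). All cells carried the tetracycline repressor (TR). The A673/TR/empty group (n = 3) held the inducible lentiviral vector without a LOX cDNA, and the A673/TR/LOX-PP group (n = 3) held the cDNA of the lysyl oxidase propeptide and was stimulated with doxycycline for 72 h, in order to find genes regulated by the propeptide. The labels of all 6 samples list doxycycline at 1 µM for 72 h, by which it was common to both groups. The wording of the methods leaves it unclear for the A673/TR/empty cultures. If those were not treated, an effect of doxycycline itself and of the propeptide cannot be told apart from these arrays. The lines were derived by selection of stable transduced cells, and which clone or population was hybridised is not given in the sources used here. The replicates came from 3 separate experiments per the methods, and the p-values measure the spread between them. Whether that spread includes variation between derived clones is not given. A difference between the derived lines and an effect of the propeptide therefore cannot be told apart.

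Integrins are receptors made of 1 alpha and 1 beta subunit that span the plasma membrane. The alpha subunit largely sets which ligand is bound, such as collagen, laminin, fibronectin or a counter-receptor on another cell, and the beta subunit anchors the pair to the actin cytoskeleton through talin and kindlins. Laminins are trimers of an alpha, a beta and a gamma chain that polymerise into the basement membrane, where nidogens, perlecan and agrin tie the laminin network to collagen IV and to the cell. Ewing sarcoma cells are small round cells of bone and soft tissue, and lysyl oxidase is an enzyme that crosslinks collagen and elastin in the extracellular matrix.

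Signals are given as log2 values relative to the 75th percentile of each array, so that 0 is the level of that percentile, and the level of 1 probe is not compared with that of another. The share of gene spots flagged as well above background ranged from 56.9% to 74.8% among empty arrays and from 59.3% to 74.1% among LOX-PP arrays, with 0 saturated gene spots. Slide 2 and scan 2 held a single array, A673/TR/LOX-PP replicate 1. Over all 32647 tested probes the LOX-PP arrays were higher by a median of 0.13 on the log2 scale, and under quantile normalization this median was -0.03. Differences below are LOX-PP minus empty relative to the median of all tested probes, so that the group means printed differ by 0.13 more. All 9 markers of Ewing sarcoma were above background on all 6 arrays, and CCK, a neuropeptide gene among them, fell by 2.67 (adjusted p = 0.0100, limma). None of the other markers had an adjusted p under 0.05 by any probe. Their differences at the brightest probe ran from -0.43 (GLI1) to 0.86 (NKX2-2). LOX itself was at -0.09, 0.36 and 0.11 on the empty arrays and at -0.12, -0.68 and -1.29 on the LOX-PP arrays, a relative difference of -0.95 with an adjusted p of 0.217 (limma). Whether that probe lies within the propeptide cDNA is not given, and the directions rest on the labels.

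The upstream regions of 3 of the 6 members that changed are shown, 1 that rose and both that fell, since EWS/FLI1 keeps the DNA-binding domain of an ETS factor and ETS factors bind a GGAA core. Each run holds the 250 bases before the start of the gene, 5′ to 3′ on the strand of the gene, from RefSeq (GRCh38.p14), and capitals mark GGAA or its reverse complement TTCC. ITGAM lies on the plus strand (chr16:31259725-31259974), ITGA1 on the plus strand (chr5:52787666-52787915) and NID2 on the minus strand (chr14:52069060-52069309).
ITGAM: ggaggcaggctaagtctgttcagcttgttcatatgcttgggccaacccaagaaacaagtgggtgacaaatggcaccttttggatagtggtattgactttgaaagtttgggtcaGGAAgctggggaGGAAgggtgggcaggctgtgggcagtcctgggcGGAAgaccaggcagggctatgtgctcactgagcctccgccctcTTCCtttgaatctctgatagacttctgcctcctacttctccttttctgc
ITGA1: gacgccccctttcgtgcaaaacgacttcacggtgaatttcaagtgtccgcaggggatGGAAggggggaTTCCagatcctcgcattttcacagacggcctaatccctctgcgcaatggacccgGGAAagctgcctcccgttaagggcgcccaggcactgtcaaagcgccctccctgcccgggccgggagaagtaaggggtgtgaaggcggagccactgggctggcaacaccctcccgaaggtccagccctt
NID2: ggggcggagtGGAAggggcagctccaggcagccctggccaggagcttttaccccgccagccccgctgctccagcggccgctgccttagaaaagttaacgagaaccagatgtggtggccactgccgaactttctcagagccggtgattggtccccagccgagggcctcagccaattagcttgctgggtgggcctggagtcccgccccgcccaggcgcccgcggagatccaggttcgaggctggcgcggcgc
The ITGAM run held 4 such cores, the ITGA1 run 3 and the NID2 run 1. Of 35116 promoters in the table, 92.7% held at least 1 core over the same length, with a median of 3. The longer form GAGGAA, which contains the core, was found on either strand in 23.6% of all promoters, with 1 match in ITGAM and 0 in ITGA1 and NID2. The run of ITGA4, which also rose and is not printed, held 2 cores and 0 matches to the longer form. These matches are a description of the letters only. ITGB2 and ITGAX had no entry in the table.

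The leukocyte integrin subunits ITGB2, ITGAM and ITGAX and the subunit ITGA4 were higher, and the collagen receptor subunit ITGA1 and the basement membrane protein NID2 were lower, on the LOX-PP arrays. Of the 54 tested member probes, 6 rose and 2 fell (limma with Benjamini-Hochberg adjustment over all tested probes, adjusted p under 0.05), compared with 3.31% of all tested probes that rose and 2.36% that fell. By the brightest tested probe of each gene, 4 of 41 members rose (ITGB2, ITGA4, ITGAX and ITGAM) and 2 fell (NID2 and ITGA1), compared with 3.7% and 3.37% of the 16601 genes tested. ITGAX passed the filter on dim probes through the LOX-PP arrays, where it was high, and the other called members were above background on all 6 arrays. The 3 arrays of each group did not overlap for 18 of the 41 members, 9 in each direction, whereas this held for 33.6% of all genes. The median difference of the 41 members was 0.10, ranging from -3.04 to 2.02, and the median of all genes was -0.09. Under quantile normalization the 1849 calls among all probes, 1080 higher and 769 lower, became 1891, 908 higher and 983 lower.

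Whether the probes passed the threshold varied when single arrays were left out. All 8 probes kept their direction in every alternative run for them, but without replicate 1 of A673/TR/empty 0 of the 8 passed, and without replicate 2 of that group again 0 passed (limma). The same omissions took the calls among all probes from 1849 to 407 and 444. Under them the difference of ITGB2 was 2.04 and 2.03, and that of NID2 was -2.95 and -2.78. Without replicate 3 of A673/TR/empty or replicate 2 of A673/TR/LOX-PP 4 of the 8 passed, and without replicate 1 or 3 of A673/TR/LOX-PP 6 passed. The adjusted p of ITGB2 ranged from 0.00362 to 0.0564 over all alternatives run, other settings included, and that of NID2 from 0.00549 to 0.0816.

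ITGB2, the common beta subunit of the leukocyte integrins, showed the largest rise of any member by its brightest probe. Its level was -0.97, -1.09 and -0.87 on the empty arrays and rose to 1.63, 0.84 and 1.05 on the LOX-PP arrays. All LOX-PP arrays were thus above all empty arrays, by a relative difference of 2.02 (SE 0.27, 4.06-fold, adjusted p = 0.00731, limma). In the total RNA of a culture, more cells of a type and more RNA per cell cannot be told apart. ITGAM, the alpha subunit that pairs with ITGB2 in the complement receptor of myeloid cells, was at -3.49, -3.62 and -3.40 on the empty arrays and at -2.36, -1.78 and -2.43 on the LOX-PP arrays. It rose by 1.19 (SE 0.25, adjusted p = 0.0313), with no overlap between the groups, and the call was lost in 9 of 14 distinct alternatives, among them normexp background correction (adjusted p = 0.0520) and no filter on dim probes (0.118). ITGAX, the alpha subunit best known from dendritic cells, was at -5.24, -5.46 and -4.72 on the empty arrays, of which 1 was above background, and at -4.12, -3.18 and -3.66 on the LOX-PP arrays, all above background. Its rise of 1.36 (SE 0.33, adjusted p = 0.0482) was thus set against 2 empty arrays not above background, so its size is uncertain. The call was lost in 9 of 13 distinct alternatives, among them normexp background correction (adjusted p = 0.126) and no filter on dim probes (0.152).

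ITGAM and ITGAX are neighbours on chromosome 16, with 0 genes between them in the RefSeq table, and ITGAD follows ITGAX with 0 coding genes between. ITGAD, a further partner of ITGB2, was at -4.83, -5.29 and -3.98 on the empty arrays and at -4.94, -2.77 and -3.90 on the LOX-PP arrays. These groups overlapped, and the difference of 0.70 (SE 0.59) had an adjusted p of 0.466. ITGAL, the partner of ITGB2 on lymphocytes, lies on the opposite side of ITGAM from ITGAX, with 35 coding genes between it and ITGAM. The ITGAL probe was above background on 0 of the 6 arrays. ITGAE, which pairs with ITGB7 on mucosal lymphocytes, was at 3.24 ± 0.17 (SD, n = 3) and 2.80 ± 0.47 (SD, n = 3), and ITGB7 was at -2.30 ± 0.20 and -2.05 ± 0.23, with overlapping groups for both (adjusted p = 0.428 and 0.587). Of the 5 leukocyte alpha subunits, 4 were tested and 2 rose, where 3.7% of all genes rose, with a median difference of 0.95. Both the count and the median include ITGAX, which passed the filter on dim probes through the LOX-PP arrays, where it was high.

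Of the markers of blood cells, ITGB2 was past the threshold and ITGAL was above background on 0 arrays. The brightest probes of PTPRC and CD3E, which mark leukocytes and T cells, were above background on all 6 arrays and differed by 0.05 and 0.22 (adjusted p = 0.839 and 0.767). Their summed signal lay between 18.2% and 33.8% of the 75th percentile on the empty arrays and between 16.3% and 51.3% on the LOX-PP arrays, so that the LOX-PP range spanned the empty range. Both probes were highest on replicate 2 of A673/TR/LOX-PP (-1.91 and -2.02), which also had the highest net signal of negative controls (574.6). The sum joins different probes and does not measure the share of blood cells. The other probes of PTPRC were above background on 0, 1 and 0 of the 6 arrays. Of the 3 markers of endothelium, CDH5 and VWF were above background on all 6 arrays and differed by -0.05 and 0.70 at their brightest probes (adjusted p = 0.880 and 0.235). The brightest probe of PECAM1 was above background on 5 arrays, at -4.25, -4.69 and -4.05 on the empty arrays and at -3.40, -2.19 and -3.34 on the LOX-PP arrays. These groups did not overlap (difference 1.23, adjusted p = 0.0955, limma). Its other probes, above background on 2 and 3 arrays, differed by 1.49 (not tested) and 2.00 (adjusted p = 0.230, limma), likewise without overlap. Of the 3 markers of epithelium, EPCAM differed by 0.49 (adjusted p = 0.263), and KRT5 and CDH1 were above background on 0 arrays. The part of other cell types in the rise of the leukocyte subunits was not tested.

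ITGA4, the alpha subunit of the receptor for VCAM1 and fibronectin, had 3 probes and all rose. Its brightest probe was at -2.65, -2.12 and -2.25 on the empty arrays and at -0.85, -0.45 and -1.39 on the LOX-PP arrays. Probe 2 was at -3.63, -3.34 and -3.14 against -1.14, -0.79 and -1.58, and probe 3 at -3.88, -3.42 and -3.35 against -1.82, -2.13 and -2.61. The groups did not overlap on any of the 3 probes, with differences of 1.32 (SE 0.30, adjusted p = 0.0430), 2.08 (SE 0.28, adjusted p = 0.00790) and 1.24 (SE 0.29, adjusted p = 0.0425). The calls of probes 1 and 3 were lost in 9 and 10 of 14 distinct alternatives, among them quantile normalization (adjusted p = 0.0586 and 0.0668) and no filter on dim probes (0.140 and 0.141), and that of probe 2 in 3. ITGA9, the closest relative of ITGA4, was at -2.34 ± 0.26 (SD, n = 3) and -2.52 ± 0.56 (SD, n = 3), and these groups overlapped (difference -0.31, adjusted p = 0.798).

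Of the 4 alpha subunits of collagen receptors, ITGA1 fell. It was at -1.47, -1.23 and -1.47 on the empty arrays and at -2.96, -3.10 and -3.39 on the LOX-PP arrays. The groups did not overlap, and the difference was -1.89 (SE 0.22, 3.69-fold lower, adjusted p = 0.00761). It was the only member probe to pass the methods' t-test after adjustment. ITGA10 was at -2.97, -2.75 and -3.06 and at -1.75, -2.08 and -2.87, and ITGA11 at -2.85 ± 0.56 (SD, n = 3) and -2.43 ± 0.39 (SD, n = 3). Both overlapped between the groups, with differences of 0.56 (adjusted p = 0.271) and 0.30 (adjusted p = 0.544). ITGA2 was above background on 0 arrays.

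The alpha subunits of laminin receptors gave no call. ITGA3 was at -5.24, -5.04 and -3.62 on the empty arrays and at -3.73, -3.02 and -3.43 on the LOX-PP arrays. Replicate 3 of A673/TR/empty overlapped the LOX-PP arrays, and the difference of 1.11 (SE 0.46, adjusted p = 0.181) passed only when that replicate was left out (1.55, adjusted p = 0.0381). ITGA6, which pairs with ITGB4 in hemidesmosomes, had 2 probes with differences of -0.71 and -0.14, and both overlapped between groups (adjusted p = 0.308 and 0.980). ITGA7, the laminin receptor subunit of muscle, was at 2.31 ± 0.06 (SD, n = 3) and 2.56 ± 0.17 (SD, n = 3), with a difference of 0.13 (adjusted p = 0.524) that turned to -0.021 with normexp background correction.

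Subunits that bind the RGD motif of fibronectin and vitronectin did not pass either. ITGAV, the alpha subunit of the vitronectin receptors, was at 2.00, 2.40 and 2.25 on the empty arrays and at 1.41, 1.81 and 1.64 on the LOX-PP arrays. The groups did not overlap, and the difference was -0.72 (SE 0.23, adjusted p = 0.191). ITGB5, a partner of ITGAV, was at 3.98, 4.03 and 3.58 and at 2.27, 3.06 and 2.77, likewise apart, with a difference of -1.29 (SE 0.28, adjusted p = 0.0639). This value passed with normexp background correction (adjusted p = 0.0486) and among probes above background on all arrays (adjusted p = 0.0411). ITGA5, the fibronectin receptor subunit, was at 1.87 ± 0.42 (SD, n = 3) and 2.26 ± 0.38 (SD, n = 3), with overlap and an adjusted p of 0.515. ITGA8, above background on 3 of the 6 arrays, and ITGA2B differed by -1.01 and 0.66, also with overlap (adjusted p = 0.356 and 0.361).

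Of the other beta subunits, ITGB1, which pairs with most of the alpha subunits above, was at 1.51, 1.74 and 1.58 on the empty arrays and at 2.59, 1.46 and 1.45 on the LOX-PP arrays. The array of A673/TR/LOX-PP replicate 1 stood above the other 5, and the difference of 0.10 (adjusted p = 0.761) was -0.32 without it. ITGB4 was at -1.85, -1.99 and -1.87 and at -1.38, -0.77 and -1.40, with groups apart and a difference of 0.59 (SE 0.25, adjusted p = 0.158). ITGB8, a partner of ITGAV that activates TGF-beta, was not tested. Its level was -3.61, -3.08 and -4.73 on the empty arrays, of which 2 were above background, and -6.87, -6.01 and -6.75 on the LOX-PP arrays, none of them above background. ITGB8 was 4.15-fold lower on the LOX-PP arrays, before the median of all probes is taken out. For this, each LOX-PP array was set at its lowest signal well above background, or at the signal of the probe where higher. The figure is not a strict bound, since the empty mean includes an array not above background. A probe not above background can also exceed that lowest signal. ITGB3 was above background on 1 LOX-PP array and on 0 empty arrays, and the groups overlapped. ITGB6 was above background on 0 arrays.

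**Figure D1:**
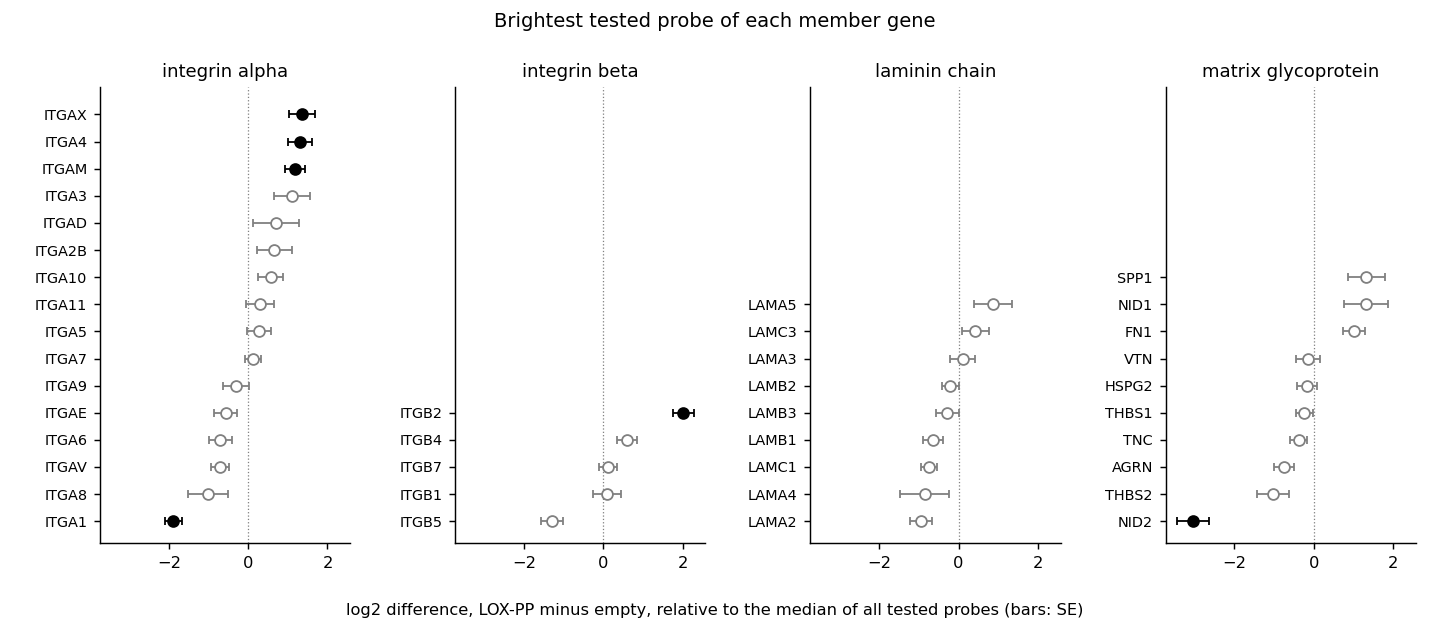
Log2 difference, LOX-PP minus empty, relative to the median of all tested probes, with its SE (6 arrays) for the brightest tested probe of 40 members in 4 families, with filled symbols for adjusted p under 0.05. Filled symbols are the 4 integrin subunits to the right of 0 (ITGAX, ITGA4, ITGAM and ITGB2), ITGA1 and NID2 to the left, and 0 of the 9 laminin chains drawn.

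No laminin chain passed by any probe. By the brightest probe, 0 of 10 tested chains rose or fell by limma, as by the methods' t-test, while 3 passed at an unadjusted p under 0.05, where 11.7% of all genes were higher and 12.0% lower, and the median difference was -0.25. LAMC1, the gamma chain of most laminins, was at 2.51, 2.19 and 2.32 on the empty arrays and at 1.69, 1.65 and 1.80 on the LOX-PP arrays. The groups did not overlap, and the difference was -0.75 (SE 0.20, adjusted p = 0.138). LAMB1, which joins LAMC1 in the same trimers, was at 4.84, 5.13 and 4.53 and at 4.52, 4.39 and 4.06, narrowly apart, with a difference of -0.64 (SE 0.25, adjusted p = 0.296). LAMA2, the alpha chain of muscle and nerve basement membrane, was at -1.99, -1.90 and -1.56 and at -2.97, -2.77 and -2.19, again apart (difference -0.95, SE 0.28, adjusted p = 0.148). LAMA3 and LAMB3, chains of epithelial laminin, overlapped between the groups, with differences of 0.10 and -0.29 (adjusted p = 0.725 and 0.792), where LAMA3 turned to -0.086 without replicate 1 of A673/TR/LOX-PP.

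Several laminin genes differed among their own probes. The 4 probes of LAMA4, a chain of vessel and muscle basement membrane, differed by -0.86, 1.29, -0.57 and -1.11, and 1 of them, probe 4, had groups that did not overlap (adjusted p = 0.135). The 3 probes of LAMC3 differed by 0.43, 1.83 and -0.96. The second was above background on 1 empty and 3 LOX-PP arrays with groups apart (SE 0.58, adjusted p = 0.113), and the third rested on replicate 2 of A673/TR/empty, at -2.00 against -5.38 and -4.12, and was 0.024 without it. LAMA5 was at -2.46, -2.80 and -1.33 and at -1.91, -1.07 and -0.60 (difference 0.87, adjusted p = 0.288), with overlap between the groups. LAMB2 differed by -0.21 and -0.08 on its 2 probes, and both turned positive under quantile normalization (0.053 and 0.16). LAMA1 and LAMB4 were above background on 0 arrays by either of their 2 probes.

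**Figure D2:**
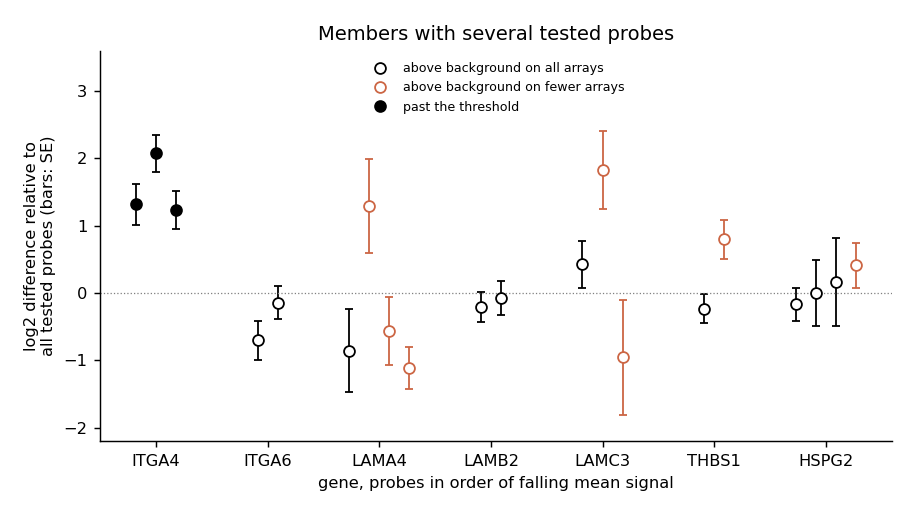
Log2 difference relative to all tested probes, with its SE (6 arrays), for each probe of the 7 members with several tested probes, in order of falling mean signal; black marks probes above background on all arrays, orange those above on fewer, and filled symbols an adjusted p under 0.05. The 3 probes of ITGA4 sit together between 1.24 and 2.08, whereas the 4 probes of LAMA4 run from -1.11 to 1.29 and the 3 of LAMC3 from -0.96 to 1.83.

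Nidogens bridge laminin and collagen IV, and the 2 nidogen genes lay on opposite sides of 0. NID2 was at 1.96, 2.20 and 1.26 on the empty arrays and at -1.87, -0.64 and -0.83 on the LOX-PP arrays. This was the largest difference of any tested member, at -3.04 (SE 0.41, 8.25-fold lower, adjusted p = 0.0115), and the groups did not overlap. NID1 was at -3.98, -2.42 and -4.67 and at -2.47, -2.25 and -2.02, with replicate 2 of A673/TR/empty within the LOX-PP range, and the difference of 1.32 (SE 0.55) had an adjusted p of 0.190. The difference between the 2 genes was not tested.

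FN1, the fibronectin bound by ITGA4 and ITGA5 receptors, was at 1.39, 1.47 and 1.39 on the empty arrays and at 2.78, 2.05 and 2.84 on the LOX-PP arrays. All LOX-PP arrays were above all empty arrays, and the difference of 1.02 (SE 0.27) had an adjusted p of 0.0603. It passed under quantile normalization (adjusted p = 0.0386), among probes above background on all arrays (0.0384) and without replicate 2 of A673/TR/LOX-PP (0.0383), and its adjusted p over all alternatives reached 0.247. SPP1, the secreted phosphoprotein osteopontin, was at -3.91, -3.23 and -3.47 against -1.55, -1.56 and -3.12. Replicate 3 of A673/TR/LOX-PP lay just above the empty arrays, and the difference was 1.33 (SE 0.46, adjusted p = 0.130), or 1.85 without that replicate (adjusted p = 0.0305). VTN, the vitronectin gene, was at -3.60 ± 0.19 (SD, n = 3) and -3.62 ± 0.47 (SD, n = 3), with overlap (adjusted p = 0.980).

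The proteoglycan agrin, AGRN, was at 3.49, 3.01 and 3.10 on the empty arrays and at 2.90, 2.38 and 2.45 on the LOX-PP arrays, apart by a difference of -0.75 (SE 0.25, adjusted p = 0.219). The 4 probes of HSPG2, which encodes perlecan, ranged from -0.17 to 0.41, all with overlap, and 3 of them changed sign under quantile normalization. TNC, the anti-adhesive tenascin, was at 3.15, 3.21 and 3.13 and at 3.04, 3.01 and 2.67, with groups apart and a difference of -0.38 (adjusted p = 0.541). The brightest probe of THBS1, a thrombospondin, differed by -0.23 with overlap and its other probe by 0.80 with groups apart (adjusted p = 0.818 and 0.125). THBS2 was at -3.05, -2.78 and -2.59 and at -3.87, -2.84 and -4.42, with overlap (difference -1.03, adjusted p = 0.263). Of the 10 glycoproteins, 1 fell and 0 rose in limma, 0 rose and 0 fell in the methods' t-test, and at an unadjusted p under 0.05 3 were higher and 2 lower (11.7% and 12.0% of all genes).

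**Figure D3:**
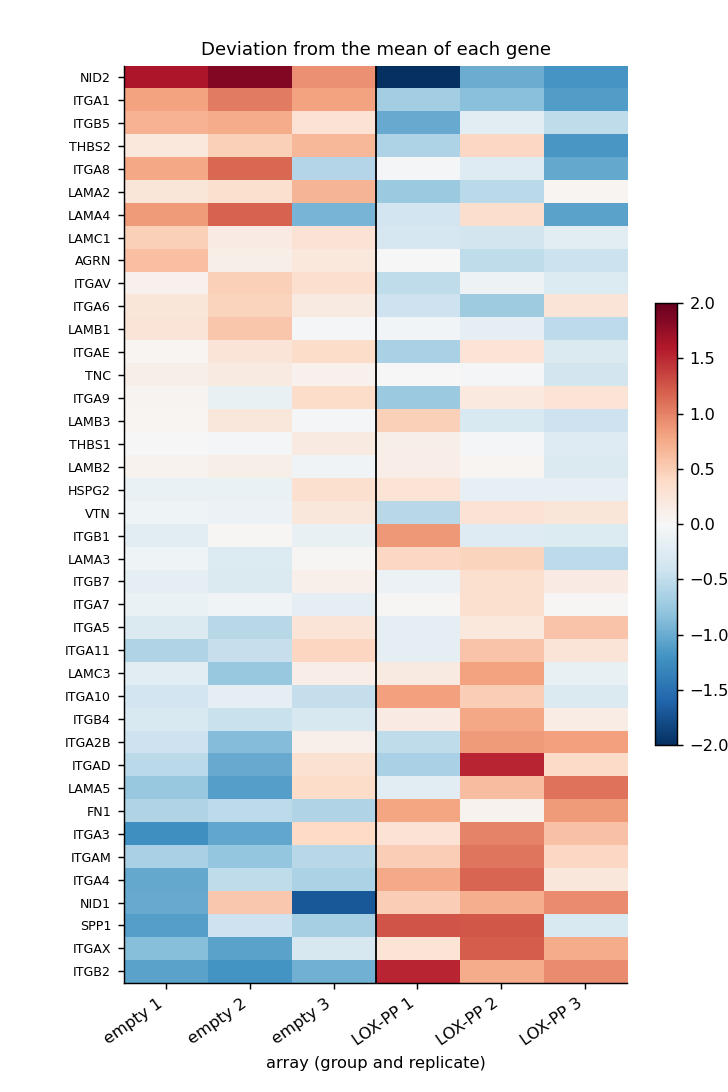
Log2 signal of the brightest tested probe of 40 members as the deviation from its mean over the 6 arrays, genes ordered from the lowest to the highest difference, 3 empty arrays on the left and 3 LOX-PP arrays on the right (red above the mean, blue below, colours capped 2 either side of it). NID2 and ITGA1 at the top and ITGB2 at the bottom change colour between the groups on all arrays, whereas ITGB1 is set apart by replicate 1 of A673/TR/LOX-PP.

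Matrix genes outside the 48 were counted for comparison. Of 46 other matrix glycoproteins, 41 were tested, 9 fell and 2 rose, with a median difference of -0.34. POSTN and TGFBI, the related fasciclin-domain proteins that bind integrins, fell by 4.75 and 3.58 on the log2 scale, and the laminin-related NTN4 fell by 3.27 (adjusted p = 0.00311, 0.00700 and 0.002245). MGP, a calcification inhibitor, and FBLN2, a fibulin, rose by 2.83 and 1.90 (adjusted p = 0.0195 and 0.0213), although MGP was above background on 1 and FBLN2 on 2 of the 3 empty arrays. POSTN was above background on 2 of the 3 LOX-PP arrays, so the sizes of these 3 differences are uncertain. FBN1 and LTBP1, also among the 9 that fell, were above background on 1 of the 3 LOX-PP arrays, and FREM2 and MATN3 on 2. The counts of 9 and 2 thus include genes that passed the filter on dim probes through the group where they were high. Of 7 tested genes of basement membrane collagens and linkers, COL4A1 and COL4A2, the neighbouring genes of the main collagen IV chains, fell by 1.28 and 1.17 (adjusted p = 0.0351 and 0.0315), 0 rose, and 1 was higher at an unadjusted p under 0.05 (11.7% of all genes). The share of all genes that rose or fell was 3.7% and 3.37%, as above.

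Among 17 matrix receptors other than integrins and their partners, CD9, a tetraspanin that associates with integrins, and SDC1, a syndecan, rose by 3.00 and 2.01 (adjusted p = 0.0291 and 0.00838). CD9 was above background on 2 of the 3 empty arrays. SDC2, another syndecan, fell by 2.10 (adjusted p = 0.0405) but was above background on 1 of the 3 LOX-PP arrays. It thus passed the filter on dim probes through the empty arrays, where it was high. The median of this list was -0.24. Of 14 proteins that activate integrins or bind their tails, FERMT1, a kindlin, and PARVA, a parvin that links integrin-linked kinase to actin, fell by 2.05 and 1.44 (adjusted p = 0.0204 and 0.0338). 0 rose in limma or the methods' t-test, and 1 was higher and 7 were lower at an unadjusted p under 0.05 (11.7% and 12.0% of all genes). The median of the 14 was -0.71, and 12 of them lay below 0, whereas 9379 of all 16601 genes did.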

How the data were processed

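Arrays of 3 A673/TR/empty and 3 A673/TR/LOX-PP samples were analysed, grouped by their labels. The authors deposited spot intensity as written by Agilent Feature Extraction (version 10.7, per the submitters' processing notes), corrected for background, with flags for spots well above background and outliers. A second deposited table holds log2 values that matched the log2 intensity, less its 75th percentile per array and less the median per probe, to within 0.0054 on 50528 probes free of outlier spots. The methods name a 2-tailed Student test for comparisons of 2 groups in general. For the arrays, the paper ranked genes by a t-test metric and ran gene set enrichment. It lists extracellular matrix organization among the affected pathways. What is called the methods' t-test here was the Student test on each probe, with Benjamini-Hochberg adjustment.

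Here spots of 1 probe were averaged as log2 values, without control or outlier spots, and each array was scaled by its 75th percentile. A probe had to be well above background on 3 or more of 6 arrays, and the 32647 probes that were so were tested with limma (version 3.58.1, R 4.3.3) on group alone, with Benjamini-Hochberg adjustment over all of them and a threshold of 0.05. The values of dim probes depend most on the background correction, and the 3 arrays per group limit the precision. Each gene stands for its brightest tested probe. Names came from RefSeq (28174 of 50599 probes). The test was tried on simulated data.

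Members with a call, the 3 next by p in each family, untested members, and called genes of the other lists (at most 3 in each direction) were named by rule. The remaining members were named to account for the list and were described after their values were seen. FBN1, LTBP1, FREM2 and MATN3 were named only for the arrays on which they were above background. The members and lists were chosen with earlier results of these data known. A member and a cell type marker are not reported here by name, and stand only in the counts. SMOC1, SMOC2 and NPNT are in 2 of the other lists. The alternatives tried were scaling by quantiles or by the median of detected probes, the authors' values, normexp (offset 50, on the median spot signal, since the files hold no mean), 2 other filters, the slide and the replicate number as blocks, the methods' t-test, the mean of all tested probes of a gene, and leaving out each array.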

Additional observations from a re-analysis of the deposited data

How the results depend on the processing

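Slide 2 holds a single array, so the slide block equalled the omission of A673/TR/LOX-PP replicate 1 and is counted once with it. None of the 8 called probes reversed in 111 alternative values, and 48 of these values missed the threshold. Against 8 probes past the threshold (6 higher and 2 lower, in 6 genes), leaving out 1 array gave between 0 and 7 probes, between 0 and 5 higher, between 0 and 2 lower, and between 0 and 5 genes. Without a filter on dim probes 4 probes passed, 2 of them higher, in 3 genes, with a larger number of probes adjusted for. With normexp background correction 3 higher probes passed, and the cause was not tested. The methods' t-test passed 1 probe, 0 higher and 1 lower, in 1 gene. By the mean of all tested probes of a gene 8 genes passed. With the replicate block 4 probes passed, 2 of them higher, in 3 genes by their brightest probe (ITGB2, ITGA1 and NID2), together with ITGA4 probe 2. Samples with the same number correlated by 0.27, -0.27 and 0.31 in their deviations, and those with different numbers by between -0.395 and 0.304. With 3 arrays per group these correlations neither show nor exclude a pairing by number.

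The 24 values that reversed belonged to 11 probes, none of them called. Under quantile normalization LAMB2 gave 0.0528 and 0.16 on its 2 probes and HSPG2 gave 0.10, -0.15 and -0.0104 on its first 3 probes. Without the filter ITGA7 gave -0.0477, ITGB1 -0.0802, ITGB7 -0.0541, LAMA3 -0.0738, and probes 2 and 3 of HSPG2 -0.17 and -0.0079. ITGA7 gave -0.0211 with normexp. With the slide as a block ITGB1 gave -0.32, LAMA3 -0.0863, LAMB2 probe 2 0.0661 and VTN 0.0901. Leaving out 1 array gave ranges from -0.32 to 0.36 for ITGB1, -0.0863 to 0.42 for LAMA3, -0.27 to 0.0661 for LAMB2 probe 2, -1.72 to 0.0241 for LAMC3 probe 3, -0.27 to 0.0901 for VTN, -0.45 to 0.29 for HSPG2 probe 2 and -0.32 to 0.65 for HSPG2 probe 3. The causes were not tested. Signal over background limits ITGAX, ITGA8, ITGAD, ITGB3, ITGB8, NID1, THBS2, HSPG2 probe 4 and the dimmer probes of LAMA4, LAMC3 and THBS1, which were not above background on every array.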
